A study of Homo sapiens with 6 samples.

Results

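The genes of DNA replication and mitosis were followed in HES3, an established line of human embryonic stem cells, to read proliferation during the induction of endoderm. The 60 genes were taken by symbol, every probe annotated with a listed symbol being kept (CDK1 also under its older symbol CDC2), and they were split into 31 genes used in S phase and 29 used in G2 and mitosis (G2/M). They had 85 of the 24526 probes on the array. A probe was tested where it was above background on at least 3 of the 6 arrays, which left 72 probes and 55 genes, 28 of S phase and 27 of G2/M, among 8186 tested genes in all. Each gene is represented below by its tested probe with the highest mean.

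One set of cultures was treated for 3 days with Activin A and BMP4 (Activin A + BMP4, 3 arrays) and the other for 3 days with Activin A (3 arrays), at 50 ng/ml of each factor. Because the labels' protocol mentions Activin A and BMP4 for all 6 samples, the groups rest on titles and source names. All cultures shared earlier growth on gamma-irradiated human feeder cells, a strainer step that typically removed 90% of the feeders, and 2 days on fibronectin in stem cell medium before treatment. The replicates are biological per the series' design text, and they come from a single cell line. POU5F1 and NANOG of stem cells and SOX17, FOXA2 and CXCR4 of endoderm were above background on every array, whereas EPCAM was above background on 1 Activin A + BMP4 array and on 0 Activin A arrays.

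Arrays had 9348 to 10460 probes above background. The number of arrays limits the precision. Each chip held a single treatment, with the Activin A + BMP4 arrays on 2 chips and the Activin A arrays on another, so treatment and chip cannot be told apart. Of 20 tested markers of fibroblasts, 19 (95%) were lower with Activin A + BMP4, against 18.1% of all tested genes, and 0 were higher. Their median log2 difference was -1.43, and their summed normalized signal was 34479 to 35579 on the Activin A + BMP4 arrays and 85221 to 99481 on the Activin A arrays. LOX, THY1 and PRRX1 fell the most, with log2 differences of -2.20, -2.17 and -2.16. Which cells of the cultures expressed these markers was not tested. Among the listed markers that were not tested, FBN1 and POSTN were above background on 0 arrays. The part of feeder RNA in the differences below was not tested. In bulk RNA, fewer cells of a type and less RNA per cell cannot be told apart.

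Replication origins are licensed in G1 when ORC1, CDC6 and CDT1 load the MCM helicase, and they fire in S phase when CDC45 and the GINS complex join it. Polymerases, clamp loaders and nucleotide enzymes then copy the DNA, and in G2 and mitosis CDK1 with its cyclins, the Polo and Aurora kinases, the kinetochore and the anaphase-promoting complex (APC/C) divide the chromosomes. Many S phase genes are activated by E2F factors through promoter sites, and many G2/M genes are controlled by the DREAM and B-MYB complexes through the CHR element and by NF-Y through CCAAT boxes. Human embryonic stem cells divide with a short G1 phase, and transcripts of these genes are widely used as a sign of how many cells are cycling.

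RefSeq promoter sequences (GRCh38.p14) were matched for 49 of the 60 members, and BUB3 and MCM4 are not among them. The promoters of 6 members with a probe past the threshold are shown, with the letters through which S phase and G2/M genes are known to be timed. The window runs from 200 bases before to 25 bases after the annotated start, 225 bases in all, 5′ to 3′ on the gene's strand. Capitals mark E2F, CHR and CCAAT letters, each searched on both strands. An E2F match was TTCCCGC. Other E2F forms were TTCGCGC, with TTGCCGC, and also TTGGCGC. A CHR match was TTTGAA or its form TTCGAA. ORC1 lies on the minus strand at chr1:52404399-52404623, POLE2 on the minus strand at chr14:49688190-49688414, and CCNB1 on the plus strand at chr5:69166950-69167174. CDK1 lies on the plus strand at chr10:60778278-60778502, which is the second of its 2 annotated starts, MCM10 on the plus strand at chr10:13161358-13161582, and NDC80 on the plus strand at chr18:2571357-2571581.
ORC1: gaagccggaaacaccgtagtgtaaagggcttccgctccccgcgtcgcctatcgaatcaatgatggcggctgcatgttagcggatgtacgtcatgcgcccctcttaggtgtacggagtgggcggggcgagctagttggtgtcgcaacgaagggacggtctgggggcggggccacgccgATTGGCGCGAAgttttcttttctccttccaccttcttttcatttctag
MCM10: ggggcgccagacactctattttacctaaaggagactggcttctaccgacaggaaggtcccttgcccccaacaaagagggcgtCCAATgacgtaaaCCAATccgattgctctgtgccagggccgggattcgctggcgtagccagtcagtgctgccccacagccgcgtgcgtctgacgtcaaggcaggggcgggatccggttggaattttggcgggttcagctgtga
POLE2: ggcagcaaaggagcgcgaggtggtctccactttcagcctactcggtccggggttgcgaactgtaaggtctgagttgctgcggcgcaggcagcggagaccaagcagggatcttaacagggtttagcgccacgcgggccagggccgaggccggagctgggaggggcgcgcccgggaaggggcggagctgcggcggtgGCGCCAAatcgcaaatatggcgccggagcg
CCNB1: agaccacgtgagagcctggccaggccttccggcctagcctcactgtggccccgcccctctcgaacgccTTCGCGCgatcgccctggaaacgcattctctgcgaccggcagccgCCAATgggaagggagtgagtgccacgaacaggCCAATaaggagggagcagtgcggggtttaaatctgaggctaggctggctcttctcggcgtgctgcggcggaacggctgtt
CDK1: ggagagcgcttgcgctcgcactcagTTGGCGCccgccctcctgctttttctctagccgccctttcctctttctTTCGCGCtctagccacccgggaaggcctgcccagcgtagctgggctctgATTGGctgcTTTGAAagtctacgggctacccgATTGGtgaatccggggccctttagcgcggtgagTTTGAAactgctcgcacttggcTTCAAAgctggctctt
NDC80: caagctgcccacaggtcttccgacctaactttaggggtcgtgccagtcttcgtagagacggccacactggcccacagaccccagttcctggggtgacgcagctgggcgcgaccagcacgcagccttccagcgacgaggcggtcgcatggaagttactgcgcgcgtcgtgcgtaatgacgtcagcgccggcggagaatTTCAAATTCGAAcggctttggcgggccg
ORC1 held 2 E2F matches that overlap each other and a CCAAT, and POLE2 held 1 E2F match. CCNB1 held 1 E2F match and 2 CCAAT matches, and MCM10 held 2 CCAAT matches. CDK1 held 2 E2F, 3 CHR and 2 CCAAT matches, and NDC80 held 2 CHR matches. Among the 35 windows of S phase members 65.7% held E2F letters, against 15.2% of the 10070 windows of all tested genes, and in G2/M members 25% of 28 windows did. CHR letters stood in 53.6% of G2/M windows and 2.86% of S phase windows, against 8.71% of tested genes' windows. CCAAT stood in 78.6% of G2/M windows and 54.3% of S phase windows, against 30.7%. CHR and CCAAT stood together in 46.4% of G2/M windows and 2.86% of S phase windows, against 3.37%. A match is a description of the letters and not a site, and windows of 1 gene overlap.

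The comparison of treatments found few differences in these genes. With Activin A + BMP4, 2 of the 55 tested members were higher (CCNB1 and NDC80), 4 were lower (BUB3, ORC1, MCM4 and POLE2) and 49 did not pass limma's adjusted threshold of 0.05. That is 10.9% of the members, against 35.8% of all tested genes (17.6% higher and 18.1% lower). The median of the absolute log2 difference was 0.17 over the members, against 0.27 over all tested genes. A log2 difference of at least 0.5 either way was seen in 2 members (3.64%), against 26.9% of all tested genes, and a difference of at least 1 in 0 members, against 9.39%. The standard errors were alike, with a median of 0.12 in the members and 0.13 over all tested genes.

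The 95% confidence intervals bound what these arrays allow. All 55 intervals lay within a log2 difference of 1 either way, reaching -0.96 at the lowest (BUB3) and 0.93 at the highest (CCNB1), and 36 lay within 0.5. A member that misses the threshold is therefore not shown to be equal between the treatments, but a 2-fold difference lies outside the interval of its brightest probe. Without adjustment, 13 members (23.6%) had a p under 0.05, against 45.6% of all tested genes. For 25 members (45.5%) the arrays of one treatment all lay on one side of the other's, against 50.2% of all tested genes. Of the 55 members 9 lay apart and higher, against 2016 of all 8186 tested genes (24.6%). The members that lay apart and lower numbered 16, against 2093 of all tested genes (25.6%).

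**Figure D1:**
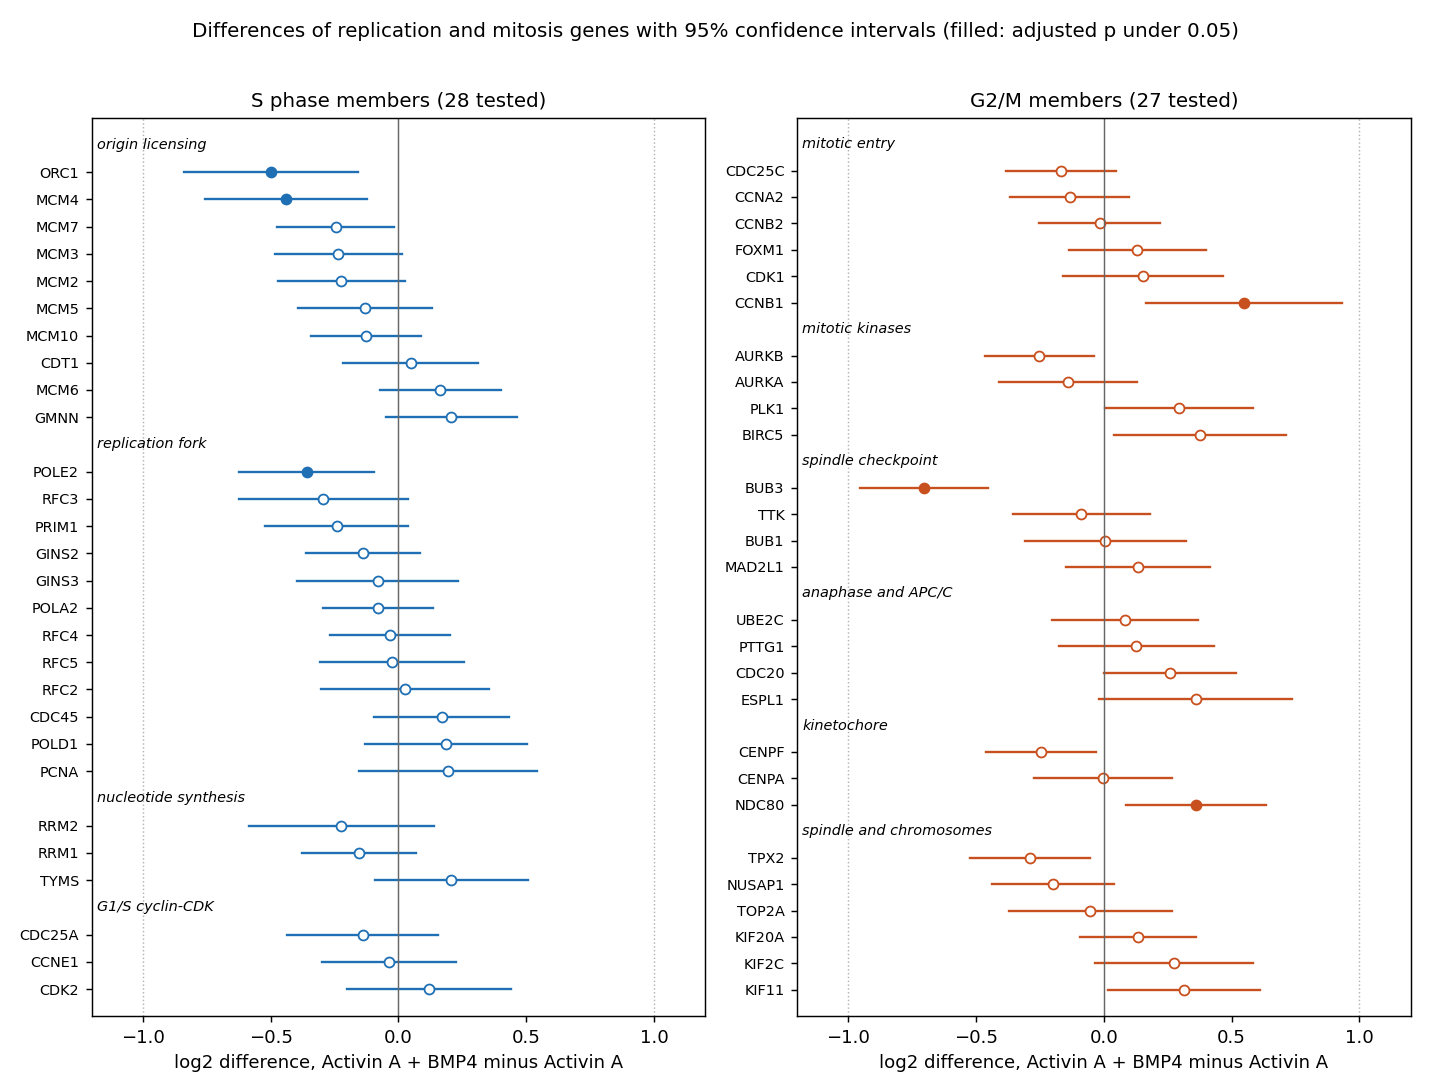
Log2 difference (Activin A + BMP4 minus Activin A, x axis) of each tested member with its 95% confidence interval, grouped by role, S phase members left and G2/M members right. Filled points passed the adjusted threshold: 3 S phase members lower, and 2 G2/M members higher and 1 lower. Dotted lines mark a log2 difference of 1 either way, and every interval ends inside them.

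The phases were read apart. Of the 28 tested S phase members 0 rose, 3 fell and 25 missed the threshold, at a median log2 difference of -0.10 and a range of -0.50 to 0.21. That is 10.7% past the threshold, against 35.8% of all tested genes (17.6% higher and 18.1% lower). By the same limma test 4 S phase members (14.3%) had an unadjusted p under 0.05, against 45.6% of all tested genes. With 1 array left out, 1 S phase member fell without Activin A + BMP4 replicate 1, 0 without its replicate 2 or 3 or without Activin A replicate 1 or 2, and 2 without Activin A replicate 3. Of the 27 tested G2/M members 2 rose, 1 fell and 24 missed the threshold, at a median of 0.08 and a range of -0.71 to 0.55. That is 11.1% past the threshold, against the same 35.8%. By limma 9 G2/M members (33.3%) had an unadjusted p under 0.05, against 45.6% of all tested genes. The arrays did not overlap for 14 G2/M members (51.9%) and 11 S phase members (39.3%), against 50.2% of all tested genes. The G2/M median was -0.0179 with median scaling of the arrays and -0.0120 with the authors' processed values, so its sign depended on the scaling. G2/M members that rose numbered 1 without Activin A + BMP4 replicate 1 or 3 or Activin A replicate 1, and 0 without Activin A + BMP4 replicate 2 or Activin A replicate 2. The median over all tested genes was 0.00. The difference between the phases was not tested.

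On each array, the median deviation of the S phase members from their mean over the 6 arrays was 0.00, -0.09 and -0.08 with Activin A + BMP4 and 0.07, 0.02 and 0.06 with Activin A. All Activin A + BMP4 arrays lay below all Activin A arrays. For the G2/M members the median deviations were 0.09, -0.02 and 0.02 with Activin A + BMP4 and 0.08, -0.10 and 0.04 with Activin A, and the treatments overlapped. Over all tested genes the array medians lay between -0.01 and 0.01.

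**Figure D2:**
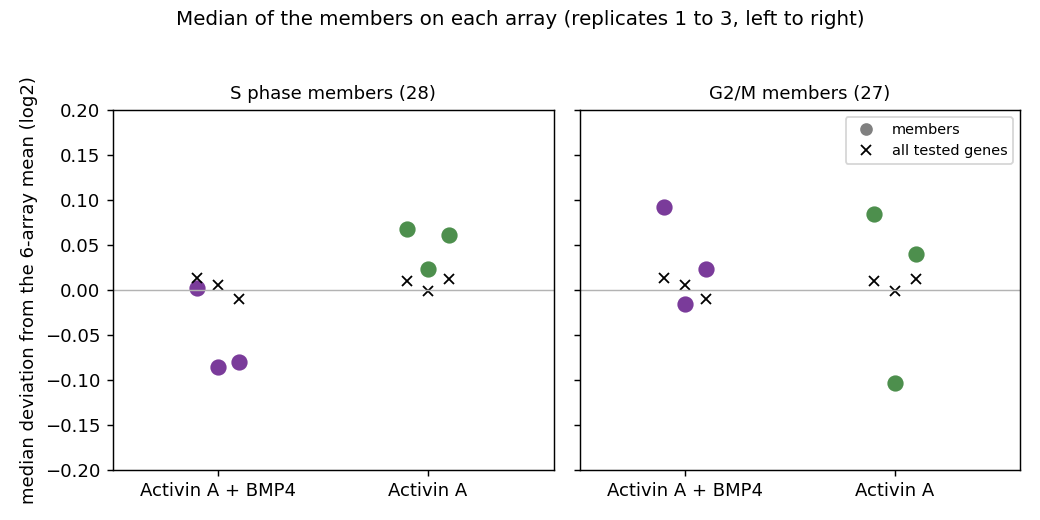
Median deviation of the members from their 6-array mean (log2, y axis) on each array, Activin A + BMP4 left and Activin A right in each panel, with crosses for all tested genes. The S phase medians of the treatments do not overlap, at -0.09 to 0.00 with Activin A + BMP4 and 0.02 to 0.07 with Activin A, and the G2/M medians do.

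**Figure D3:**
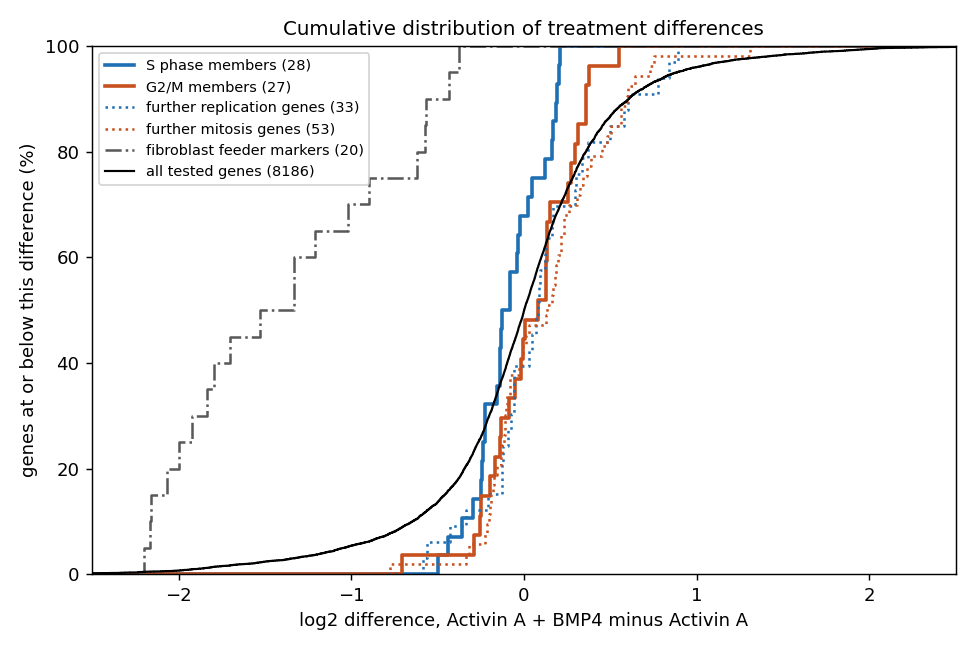
Share of genes (%, y axis) at or below each log2 difference (Activin A + BMP4 minus Activin A, x axis) for S phase members, G2/M members, the further replication and mitosis genes, fibroblast feeder markers and all tested genes. The members lie between -0.71 and 0.55, a narrower span than the line of all tested genes, and the feeder markers lie to the left with a median of -1.43.

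Origin licensing held 2 of the 3 S phase genes that fell. Of its 10 tested members ORC1 and MCM4 were lower (20%, against 18.1% of all tested genes), 0 were higher and 8 did not pass. The share past the threshold in either direction was 35.8% over all tested genes. The median log2 difference of the 10 members was -0.18. Their arrays did not overlap for 7 (6 lower and 1 higher), against 50.2% of all tested genes. The 10 genes have between them the origin recognition subunit ORC1, the loader CDT1 and its inhibitor geminin (GMNN), the 6 subunits of the MCM2 to MCM7 helicase, and MCM10, which acts when the helicase is activated.

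ORC1, the subunit of the origin recognition complex that binds origins in G1, had normalized log2 signals of 6.92, 6.57 and 6.36 with Activin A + BMP4 and 7.11, 7.20 and 7.04 with Activin A. Every Activin A + BMP4 array was below every Activin A array. The mean was 6.62 ± 0.281 with Activin A + BMP4 and 7.12 ± 0.0802 with Activin A (SD, n = 3 each), 1.41-fold lower (log2 difference -0.50 ± 0.15 SE, limma adjusted p = 0.0309). With 1 array left out, the call was lost without Activin A + BMP4 replicate 2 or 3 (adjusted p = 0.0865 and 0.0793) and without Activin A replicate 1, 2 or 3 (0.0749, 0.0882 and 0.0560). The log2 difference lay between -0.54 and -0.37 in these fits.

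MCM4, a helicase subunit, had log2 signals of 9.71, 9.94 and 9.89 with Activin A + BMP4 and 10.51, 10.29 and 10.05 with Activin A. The treatments did not overlap, though Activin A replicate 3 lay close to the Activin A + BMP4 arrays. MCM4 averaged 9.85 ± 0.123 with Activin A + BMP4 and 10.29 ± 0.231 with Activin A (SD, n = 3 each), 1.36-fold lower (log2 difference -0.44 ± 0.14 SE, limma adjusted p = 0.0389). The call was lost without any 1 of Activin A + BMP4 replicates 1, 2 and 3 (adjusted p = 0.113, 0.0627 and 0.0694) or of Activin A replicates 1 and 2 (0.120 and 0.0874). The second MCM4 probe differed by -0.21 ± 0.14 SE on the log2 scale and did not pass (limma adjusted p = 0.274).

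The other helicase subunits did not pass. MCM2 had log2 signals of 8.47, 8.27 and 8.32 with Activin A + BMP4 and 8.69, 8.51 and 8.53 with Activin A, without overlap. Its log2 difference was -0.22 (95% interval -0.47 to 0.03, limma adjusted p = 0.148). MCM3, MCM5 and MCM7 had log2 differences of -0.23, -0.13 and -0.25, whereas MCM6 had 0.16 with arrays above those of Activin A. The second probe of MCM7 had a difference of -0.01. The 6 subunits work in 1 hexamer, and 5 of them had negative differences by brightest probe, as did 4073 of all 8186 tested genes. Of these 5 only MCM4 passed.

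Of the remaining licensing genes, CDT1 and geminin (GMNN) had log2 differences of 0.05 and 0.21 and did not pass. CDC6, which recruits the helicase with CDT1, was above background on 0 arrays and was not tested. MCM10 did not pass with its brighter probe (log2 difference -0.13, limma adjusted p = 0.332). Its second probe had log2 signals of 6.56, 6.48 and 6.79 with Activin A + BMP4 and 7.11, 6.87 and 6.99 with Activin A, and was lower (log2 difference -0.38 ± 0.12 SE, limma adjusted p = 0.0411). That call was lost without Activin A + BMP4 replicate 1 or 2 (adjusted p = 0.101 and 0.136) and without Activin A replicate 1 or 3 (0.128 and 0.0901).

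At the replication fork, 1 of 12 tested members was lower (8.33%, against 18.1% of all tested genes) and 0 were higher. Their median log2 difference was -0.06. POLE2, the second subunit of the leading-strand polymerase epsilon, had log2 signals of 8.05, 8.03 and 7.91 with Activin A + BMP4 and 8.52, 8.35 and 8.20 with Activin A. The treatments did not overlap. POLE2 averaged 7.998 ± 0.0750 with Activin A + BMP4 and 8.36 ± 0.160 with Activin A (SD, n = 3 each), 1.28-fold lower (log2 difference -0.36 ± 0.12 SE, limma adjusted p = 0.0412). The call was lost without any 1 of Activin A + BMP4 replicates 1, 2 and 3 (adjusted p = 0.0682, 0.0864 and 0.0997) or of Activin A replicates 1 and 2 (0.134 and 0.0883).

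PCNA, the sliding clamp that holds polymerases on DNA and a common marker of S phase, had log2 signals of 9.76, 9.69 and 10.15 with Activin A + BMP4 and 9.83, 9.70 and 9.48 with Activin A. The treatments overlapped, and replicate 3 was the highest Activin A + BMP4 array and the lowest Activin A array. The log2 difference of PCNA was 0.19 (95% interval -0.15 to 0.54, limma adjusted p = 0.354). The clamp loader genes RFC2, RFC3, RFC4 and RFC5 had log2 differences of 0.03, -0.29, -0.03 and -0.02 and did not pass. The second probes of RFC2, RFC3 and RFC4 had differences of 0.08, 0.09 and 0.11.

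CDC45 and the GINS subunits GINS2 and GINS3, which complete the active helicase, had log2 differences of 0.17, -0.14 and -0.08 and did not pass. GINS1 was above background on 0 arrays. The primase subunit PRIM1, the polymerase alpha subunit POLA2 and the polymerase delta catalytic subunit POLD1 had differences of -0.24, -0.08 and 0.19, none past the threshold. The arrays did not overlap for GINS2 and POLA2, both below Activin A.

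Among enzymes that make nucleotides, 0 of 3 passed (the median log2 difference was -0.16). The ribonucleotide reductase subunits RRM1 and RRM2 had log2 differences of -0.16 and -0.22, and thymidylate synthase (TYMS) had 0.21. The cyclins and kinases that start S phase likewise had 0 of 3 past the threshold. Cyclin E1 (CCNE1), its kinase CDK2 and the activating phosphatase CDC25A had log2 differences of -0.04, 0.12 and -0.14. A second CDK2 probe had 0.40 with arrays that did not overlap (limma adjusted p = 0.0636), and cyclin E2 (CCNE2) was above background on 0 arrays.

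In mitotic entry, 1 of 6 tested members was higher (16.7%, against 17.6% of all tested genes) and 0 were lower. Their median log2 difference was 0.06. CCNB1, the B-type cyclin that drives CDK1 into mitosis, had log2 signals of 7.04, 7.23 and 7.32 with Activin A + BMP4 and 6.66, 6.32 and 6.96 with Activin A. The treatments did not overlap, and Activin A spread more widely. CCNB1 averaged 7.20 ± 0.142 with Activin A + BMP4 and 6.65 ± 0.321 with Activin A (SD, n = 3 each), 1.46-fold higher (log2 difference 0.55 ± 0.17 SE, limma adjusted p = 0.0340). The call was lost without Activin A + BMP4 replicate 2 or 3 (adjusted p = 0.0877 and 0.0959) and without Activin A replicate 1 or 2 (0.0776 and 0.0894). CCNB2, the other B-type cyclin, had a log2 difference of -0.02 (limma adjusted p = 0.923).

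CDK1, the kinase of mitotic entry, gave different readings with its 2 tested probes, which the annotation pairs with different RefSeq transcripts. Its brighter probe had log2 signals of 9.70, 9.89 and 10.16 with Activin A + BMP4 and 9.88, 9.66 and 9.76 with Activin A. These overlapped, and the log2 difference was 0.15 (95% interval -0.16 to 0.47, limma adjusted p = 0.422). The second CDK1 probe had log2 signals of 8.17, 7.93 and 8.03 with Activin A + BMP4 and 7.43, 7.17 and 7.25 with Activin A. Every Activin A + BMP4 array was above every Activin A array, and this probe was 1.69-fold higher (log2 difference 0.76 ± 0.12 SE, limma adjusted p = 0.00137). The second CDK1 probe passed in all 15 alternative fits that were run, with adjusted p between 3.53e-04 and 0.00678. The 2 differences were 0.60 apart, the widest gap among 17 pairs of tested probes of 1 member, and whether they differ was not tested.

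CCNA2, a cyclin used in both S phase and G2, had a log2 difference of -0.13, and FOXM1, a transcription factor of G2/M genes, had 0.13. CDC25C, a phosphatase that activates CDK1, had -0.17 with its brightest probe, below Activin A on every array, whereas its other tested probes had 0.01 and 0.10 with overlapping arrays. The second FOXM1 probe had -0.00. None passed the threshold. Of the mitotic kinases and their partners 0 of 4 passed. PLK1, the Polo kinase, had a log2 difference of 0.29 and survivin (BIRC5) 0.38, whereas Aurora A (AURKA) and Aurora B (AURKB) had -0.14 and -0.25. Survivin and Aurora B work in the same chromosomal passenger complex, and their arrays lay apart in opposite directions (limma adjusted p = 0.0786 and 0.0669). The second BIRC5 probe had a difference of -0.17 with overlapping arrays, and the second AURKA probe had -0.27 without overlap (limma adjusted p = 0.0757).

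The spindle checkpoint had the largest member difference by brightest probe. BUB3, which brings checkpoint kinases to unattached kinetochores, had log2 signals of 11.44, 11.24 and 11.21 with Activin A + BMP4 and 12.10, 11.95 and 11.96 with Activin A. The treatments were far apart relative to the spread of their arrays. BUB3 averaged 11.30 ± 0.122 with Activin A + BMP4 and 12.002 ± 0.0886 with Activin A (SD, n = 3 each), 1.63-fold lower (log2 difference -0.71 ± 0.11 SE, limma adjusted p = 0.00144). BUB3 passed in all 15 alternative fits, with adjusted p between 8.26e-05 and 0.00815. A second BUB3 probe, paired with another transcript and above background on 1 Activin A + BMP4 array and 3 Activin A arrays, did not pass (log2 difference -0.27 ± 0.25 SE, limma adjusted p = 0.444).

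The other checkpoint genes did not pass the threshold. BUB1, a kinase that works in a complex with BUB3, had a log2 difference of 0.01 with a 95% interval of -0.31 to 0.32. MAD2L1, which blocks CDC20, and the kinase TTK had 0.13 and -0.09. BUB1B, another BUB3 partner, was above background on 0 arrays and was not tested.

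**Figure D4:**
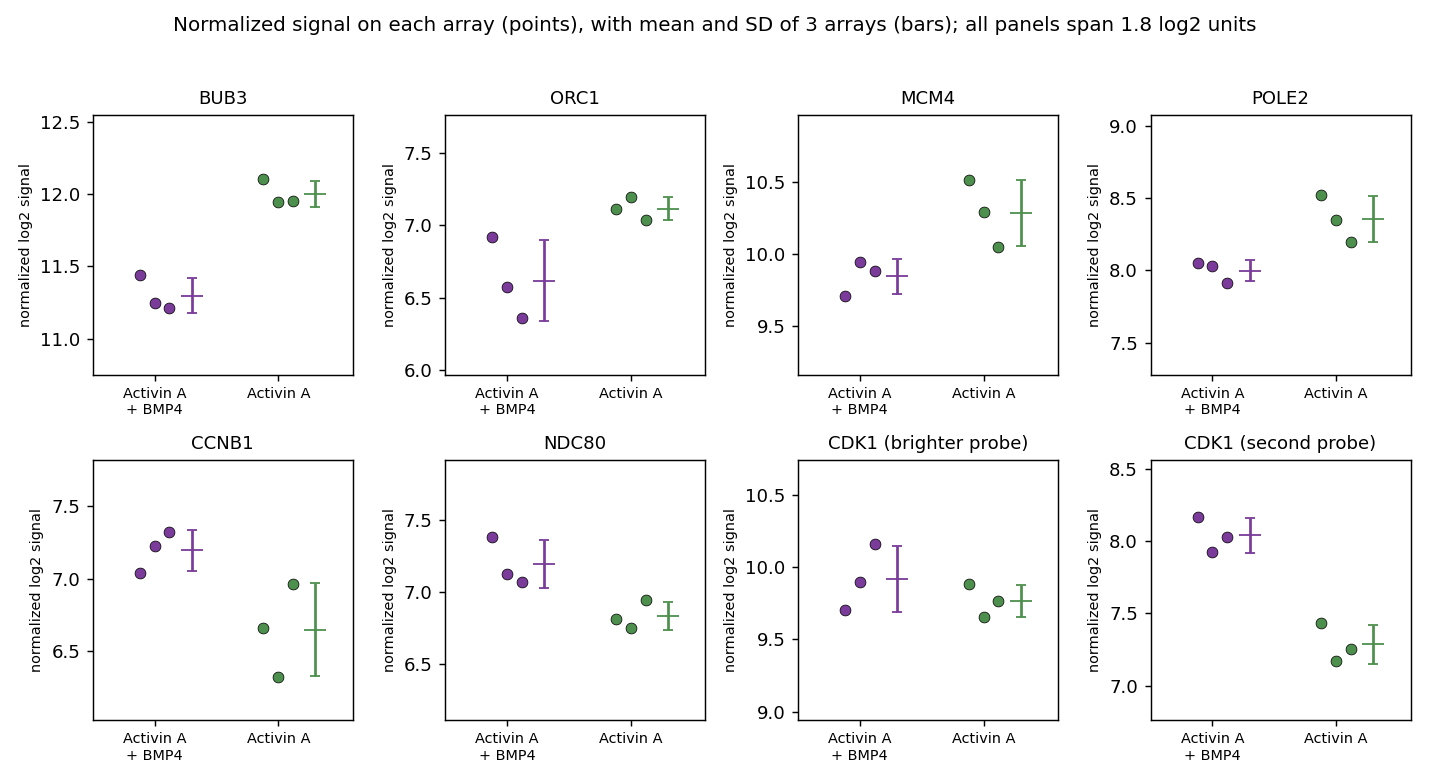
Normalized log2 signal (y axis) on each array with mean and SD (n = 3) for the 6 members past the threshold and for both CDK1 probes, Activin A + BMP4 left and Activin A right. BUB3 lies at 11.21 to 11.44 with Activin A + BMP4 and 11.95 to 12.10 with Activin A, and the second CDK1 probe lies apart in the other direction while the brighter one overlaps.

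All 4 tested genes of anaphase and the APC/C had positive differences, and 0 passed. With median scaling or the authors' processed values PTTG1 and UBE2C had negative differences. CDC20, the APC/C activator that the checkpoint restrains, had log2 signals of 11.03, 10.96 and 11.02 with Activin A + BMP4 and 10.81, 10.56 and 10.87 with Activin A. The Activin A + BMP4 arrays were all above the Activin A arrays. The log2 difference of CDC20 was 0.26 (95% interval -0.00 to 0.52, limma adjusted p = 0.112). Separase (ESPL1), its inhibitor securin (PTTG1) and the ubiquitin-conjugating enzyme UBE2C had log2 differences of 0.36, 0.13 and 0.08, and the second UBE2C probe had 0.29.

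At the kinetochore 1 of 3 tested members was higher (33.3%, against 17.6% of all tested genes) and 0 were lower. NDC80, the subunit that gives its name to the microtubule-binding complex of the kinetochore, had log2 signals of 7.39, 7.13 and 7.07 with Activin A + BMP4 and 6.81, 6.75 and 6.94 with Activin A. The arrays did not overlap. NDC80 averaged 7.20 ± 0.167 with Activin A + BMP4 and 6.84 ± 0.0992 with Activin A (SD, n = 3 each), 1.28-fold higher (log2 difference 0.36 ± 0.12 SE, limma adjusted p = 0.0469). The call was lost without Activin A + BMP4 replicate 1 or 2 (adjusted p = 0.133 and 0.0799) and without any 1 of Activin A replicates 1, 2 and 3 (0.112, 0.129 and 0.0575).

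CENPF, a large kinetochore protein of G2 and mitosis, had a log2 difference of -0.25 and tightly grouped arrays that did not overlap, yet it missed the threshold (limma adjusted p = 0.0737). CENPA, the histone H3 variant of centromeres, had -0.00, and 0.05 with its second probe. Among 6 tested genes of spindle and chromosomes 0 passed, although 5 had arrays that did not overlap, against 50.2% of all tested genes. The mitotic kinesins KIF11, KIF20A and KIF2C had log2 differences of 0.31, 0.13 and 0.27, and the spindle assembly factors TPX2 and NUSAP1 had -0.29 and -0.20. The second NUSAP1 probe had 0.01. TPX2, which activates Aurora A, was the closest to the threshold (limma adjusted p = 0.0586).

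TOP2A, the topoisomerase that untangles chromosomes before division, had log2 signals of 10.85, 10.71 and 10.46 with Activin A + BMP4 and 10.89, 10.53 and 10.75 with Activin A. The treatments overlapped almost wholly (log2 difference -0.05, 95% interval -0.37 to 0.27, limma adjusted p = 0.802). MKI67, which encodes the proliferation marker Ki-67, gave no reading. Its probe was above background on 1 of 6 arrays, with deposited signals of 72.7, 37.5 and 44.0 with Activin A + BMP4 and 45.9, 43.1 and 46.5 with Activin A.

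Several tested probes were available for 16 members, in 17 pairs. In 4 pairs 1 probe passed and the other did not (BUB3, CDK1, MCM4 and MCM10), and in 0 pairs did both pass in opposite directions. The median absolute gap between the differences of a pair was 0.23. The median absolute difference of the 55 members by brightest probe was 0.17, but a gap carries the error of 2 estimates, so the values are not alike. Counted by probe, 3 of the 72 tested member probes were higher and 5 lower, against 35.4% of all tested probes past the threshold in either direction.

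**Figure D5:**
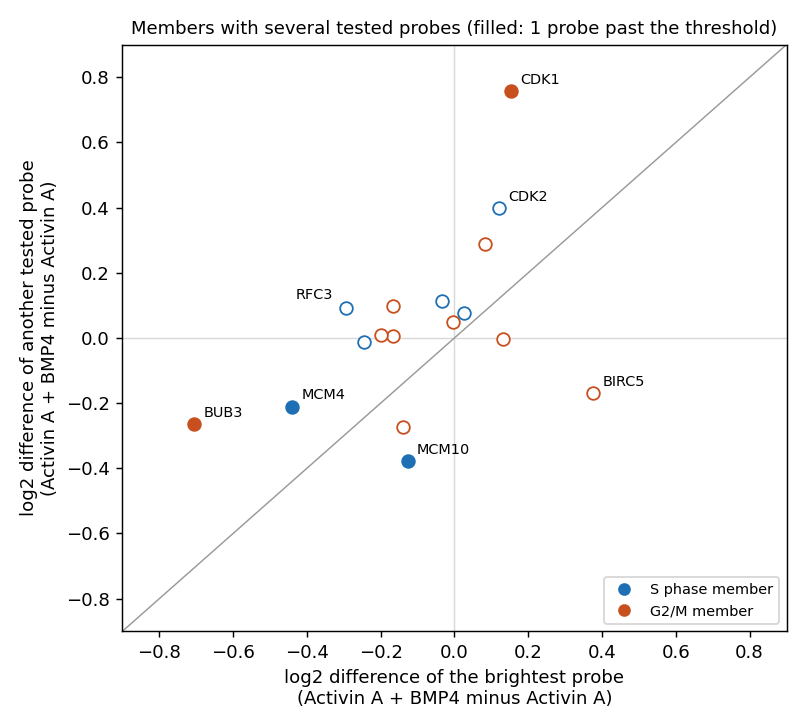
Log2 difference (Activin A + BMP4 minus Activin A) of a member's brightest probe (x axis) against that of another tested probe of the same member (y axis), 17 pairs in 16 members, with the line of equal differences. Filled points have 1 probe past the threshold; CDK1 lies farthest from the line, 0.60 away in its differences.

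Other genes of the pathway were taken from lists of further replication and mitosis genes and of their E2F, RB and DREAM regulators. Of 33 tested replication genes 5 rose, 3 fell and 25 missed the threshold, which is 24.2% against 35.8% of all tested genes, with a median log2 difference of 0.08. SLBP, the stem-loop binding protein needed for histone mRNA in S phase, had log2 signals of 8.005, 7.65 and 8.21 with Activin A + BMP4 and 7.17, 6.72 and 7.31 with Activin A. It was 1.85-fold higher (log2 difference 0.89 ± 0.19 SE, limma adjusted p = 0.00734). TOPBP1, which helps to load CDC45, was 1.79-fold higher, and the primase subunit PRIM2 was higher with 1 of 3 Activin A arrays above background (limma adjusted p = 0.0036 and 0.00556). The size for PRIM2 followed the background setting, with a log2 difference of 0.78 that lay between 0.45 and 0.97 over 14 alternative fits. The exonuclease EXO1 and the polymerase epsilon subunit POLE3 were 1.47-fold and 1.34-fold lower (limma adjusted p = 0.00383 and 0.0110). DUT did not pass with its brightest probe (log2 difference -0.09). Another DUT probe was lower (log2 difference -0.60, limma adjusted p = 0.0223), whereas a further probe had 0.38 and did not pass. GINS4, a GINS subunit, was lower (limma adjusted p = 0.0220) with 1 of 3 Activin A + BMP4 arrays above background. Its log2 difference was -0.59 and lay between -0.74 and -0.32 over 14 alternative fits, and its call was lost without Activin A + BMP4 replicate 2 or Activin A replicate 3 (adjusted p = 0.0684 and 0.0707).

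Of 53 tested further mitosis genes 12 rose, 2 fell and 39 missed the threshold, with a median log2 difference of 0.14. That is 26.4% called, against 35.8% of all tested genes (17.6% higher and 18.1% lower). LMNB1, the nuclear lamina protein lamin B1, had log2 signals of 9.59, 9.38 and 9.53 with Activin A + BMP4 and 8.34, 8.04 and 8.19 with Activin A. With a 2.48-fold rise it differed more than any of the 55 members (log2 difference 1.31 ± 0.12 SE, limma adjusted p = 7.43e-05). The centrosomal kinase NEK2 and the G2 protein GTSE1 were 1.68-fold and 1.66-fold higher (limma adjusted p = 0.00126 and 0.00175). WEE1, the kinase that holds CDK1 inactive, had log2 signals of 8.92, 8.75 and 9.08 with Activin A + BMP4 and 9.56, 9.87 and 9.65 with Activin A, 1.71-fold lower (log2 difference -0.78 ± 0.13 SE, limma adjusted p = 0.00217). The kinesin KIF15 was 1.24-fold lower (limma adjusted p = 0.0416), and leaving out any array lost its call (adjusted p between 0.0656 and 0.118), and the mitosis genes that fell then numbered 1 or 2.

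Of 13 tested regulators 1 rose, 2 fell and 10 missed the threshold, which is 23.1% called against 35.8% of all tested genes. Their median log2 difference was -0.01. RBBP4, a histone-binding subunit of the DREAM core, was 1.68-fold higher (limma adjusted p = 0.0267), and it missed the threshold when Activin A replicate 1 or 2 was left out (adjusted p = 0.0871 and 0.0506). E2F7, a repressor among the E2F factors, was 1.49-fold lower (limma adjusted p = 0.0136). RB1, the retinoblastoma protein that restrains E2F, had log2 signals of 5.51, 5.90 and 5.72 with Activin A + BMP4, not well above background on any of these arrays, and 6.43, 6.68 and 6.62 with Activin A, above background on all 3. RB1 was at least 1.44-fold lower (limma adjusted p = 0.00126), taking for each dim array the higher of the lowest detected signal and the probe's own, or at least 1.22-fold lower under another background correction. RB1 passed the filter on dim probes only through the Activin A arrays, so its p compares those arrays with background values.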

How the data were processed

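HES3 cultures were measured with 3 Illumina bead arrays a treatment. Signals were deposited as linear intensity without normalization, per the file headers, and 22.2% to 24.6% of the values of each array were below 0. The deposited detection score, named a detection p-value in the file headers, rises with the signal and was read as 1 minus p. Values processed by the authors, in log2 units with an unknown centring baseline, served as an alternative.

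Background was corrected by normexp with negative controls inferred from detection (offset 16) and arrays were quantile-normalized in limma 3.58.1 under R 4.3.3. A probe with detection p under 0.01 on at least 3 of 6 arrays was tested by lmFit and eBayes, treatment as the only term, two-sided, with Benjamini-Hochberg adjustment over 10116 probes at 0.05. Symbols came from the platform annotation, updated by gene ID. The fit was tested on simulated data. All 60 members are reported, with each array's values for up to 3 past the threshold per role and for 8 fixed genes (PCNA, MCM2, MCM4, CCNB1, CDK1, CDC20, TOP2A and MKI67), and with up to 3 rises and 3 falls per further list. DUT of the replication list is named besides for its other probes. Members and lists were chosen with earlier results of these data known. Same-numbered replicates were checked for pairing, and their deviations correlated at 0.03, -0.03 and -0.05. These values show no shared deviation by number, but they cannot tell whether same-numbered cultures were handled together. Alternatives covered background correction, normalization, filter, chip as a random block, replicate block, probe choice and each array left out. None of them can separate chip from treatment.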

Additional observations from a re-analysis of the deposited data

How the results depend on the processing

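The 55 tested members were set against 15 alternative fits, 824 comparisons in all, of which 780 left the call unchanged, 38 lost it, 6 gained one and 0 reversed a call. In 28 comparisons a difference changed sign with no call on either side. BUB3 and the second CDK1 probe passed in every fit. CCNB1 and ORC1 passed in 9 of 15, MCM4 and POLE2 in 7, the second MCM10 probe in 6 and NDC80 in 5. The gains were AURKB, CENPF and TPX2 with normexp and an offset of 50, TPX2 among probes detected on all arrays, BIRC5 without Activin A replicate 1 and ESPL1 without Activin A replicate 3. G2/M members higher numbered 1 with normexp, without background correction, with median scaling, with the replicate block and with chip as a random block, 0 without a filter on dim probes, and 3 with the mean over a gene's tested probes. G2/M members lower numbered 4 with normexp and 2 among probes detected on all arrays, and S phase members lower numbered 0 without the filter. The G2/M members median log2 difference was -0.0179 under median scaling, and the authors' processed values gave -0.0120. With 1 array left out, S phase members lower numbered 0 to 2 (median -0.11 to -0.09), G2/M members higher 0 to 2 (median 0.01 to 0.15), tested probes higher 1386 to 1576 and lower 1474 to 1637. The share of tested genes called was 28.7% to 32.0% in these fits and 15.9% to 39.5% in the others. The replicate block lost NDC80, MCM4 and the second MCM10 probe (limma adjusted p = 0.0747, 0.0663 and 0.0541), and for 2 of 6 arrays the best-correlated array of the other treatment had the same number. Chip as a random block lost NDC80 (limma adjusted p = 0.0504). That fit cannot separate chip from treatment, because each chip held a single treatment. Further mitosis genes higher numbered 8 to 13 over the fits. Of 252 comparisons of the 17 genes of the further lists named for a rise or fall, 15 lost a call and 0 reversed. Of these 15 losses 10 were of KIF15. Why a call was lost or gained was not tested in any fit, those with fewer arrays or more probes included. Signal over background limits CDC6, GINS1, CCNE2, BUB1B and MKI67, which could not be tested.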
